A study of Mus musculus with 8 samples.

Results

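Genes of transforming growth factor beta (TGF-beta) and activin signalling were followed in mouse samples labelled as small intestinal adenoma and as small intestine. The 9 genes were taken by name from the count table: the ligand genes Tgfb1, Tgfb2 and Tgfb3, the receptor genes Tgfbr1 and Tgfbr2, the activin subunit genes Inhba and Inhbb, the activin inhibitor gene Fst, and Tgfbi, a matrix protein gene first found as a TGF-beta-induced transcript. All 9 were among the 39179 genes of the table, and all 9 were among the 18345 that passed the filter on low counts and were tested. RNA of whole tissue was sequenced from 5 adenomas of VilCreER+ APCfl/+ mice and from 3 small intestine samples of VilCreER+ mice, here called wild type. All 8 came from tamoxifen-induced animals of inbred C57BL6/J background. VilCreER is a tamoxifen-dependent Cre recombinase under the control of the villin promoter, active in gut epithelium, so recombination is directed to epithelial cells, while the RNA also holds stroma, muscle and blood cells. The adenoma mice carried 1 floxed and 1 normal allele of Apc, a restraint on Wnt signalling, and the series describes them as aged. Whether each library is a different mouse is not stated, and the p-values therefore describe the spread among these samples only.

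TGF-beta is secreted in a latent complex and is released by integrins and matrix proteins. The freed dimer joins the type II receptor Tgfbr2 with the type I receptor Tgfbr1, which phosphorylates Smad2 and Smad3 to enter the nucleus with Smad4. Activins are dimers of Inhba or Inhbb products that use other receptors but the same Smad2 and Smad3, and follistatin, the Fst product, traps them outside the cell. In intestinal epithelium TGF-beta signalling restrains proliferation, and in fibroblasts it promotes matrix production.

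The libraries held 18040301 to 28343915 counts. Levels are in CPM, counts scaled to a common library size by the TMM method, and fold changes are adenoma over wild type, on the log2 scale ± SE. Some libraries stood apart. Adenoma 2 held 245.5 CPM of Hoxb13, a hindgut gene that reached at most 0.894 CPM elsewhere. Its summed enterocyte markers reached only 88.04 CPM, against 6103 to 11990 CPM in the other adenomas and 19640 to 32160 CPM in wild type. Gata4, which marks the upper small intestine, was nearly absent from it, with 0.470 CPM beside at least 68.4 CPM in each remaining library. The regional markers of adenoma 2 thus go against its small intestinal label, and values without it are given with the results. Adenoma 5 and wild type 1 held RNA of pancreas, with 63.5 and 190.0 CPM of the lipase gene Pnlip and at most 0.798 CPM elsewhere. Adenomas 2, 3, 4 and 5 had the female pattern of Xist and Y-linked genes, and adenoma 1 and the 3 wild-type libraries the male one. With this pattern as a covariate, the group contrast therefore rests on adenoma 1 alone. A call lost in that fit does not show that the gene is unchanged. Apc itself, counted over the whole gene, stood at 132 to 159 CPM in adenoma and 191 to 211 CPM in wild type.

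The upstream sequences of the activin subunit genes are shown because these genes changed most among the 9. They are the 250 bases before the transcription start on GRCm38.p6, from RefSeq, for Inhba at chr13:16011601-16011850 (plus strand) and Inhbb at chr1:119422249-119422498 (minus strand), read 5′ to 3′, with the only motif match in capitals.
Inhba: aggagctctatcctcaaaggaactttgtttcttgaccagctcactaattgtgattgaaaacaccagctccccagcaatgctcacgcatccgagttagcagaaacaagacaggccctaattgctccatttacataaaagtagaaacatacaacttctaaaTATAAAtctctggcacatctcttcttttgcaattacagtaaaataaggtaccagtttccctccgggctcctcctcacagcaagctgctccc
Inhbb: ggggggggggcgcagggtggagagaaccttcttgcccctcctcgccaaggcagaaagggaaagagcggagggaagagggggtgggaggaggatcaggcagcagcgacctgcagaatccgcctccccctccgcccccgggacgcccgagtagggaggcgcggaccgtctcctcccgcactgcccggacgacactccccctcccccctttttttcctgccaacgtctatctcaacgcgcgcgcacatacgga
The windows differ in composition, with 43.2% G and C in Inhba and 68.0% in Inhbb, beside a median of 52.4% over 32851 promoters. On both strands they were searched for TGANTCA (the AP-1 motif), CTTTGAT (a TCF motif), CAGAC (the CAGA box of Smad3 and Smad4) and TATAAA. None of the 4 motifs contains another. Inhba held TATAAA once, its first base 91 bases before the start, and Inhbb held none of the 4. Of all promoters of this length, 6.75% held TGANTCA, 3.21% CTTTGAT, 42.2% CAGAC and 12.4% TATAAA. Of the 9 genes 7 had a promoter in the table, among which CAGAC was found for Tgfb2, Tgfbr2, Tgfbi and the second start of Tgfbr1, and TATAAA also for Tgfb2, its first base 31 bases before the start.

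Of the 9 genes, 8 were higher and 1 lower in adenoma by edgeR's quasi-likelihood test with Benjamini-Hochberg adjustment over all genes. Over all genes tested, 58.1% were called, 30.3% higher and 27.8% lower, so a call alone sets no gene apart here. The median log2 fold change of the 9 was 0.79, beside 0.04 over all genes. The changes fell into different sizes: the activin genes Inhba, Inhbb and Fst stood at 5.29-fold or more, Tgfbr2 at 2.22-fold, and the other called increases at 1.30-fold to 1.73-fold. In 8 of the 9 genes the adenoma and wild-type values did not overlap, with adenoma above in 7 and below in 1, beside 56.9% of all genes tested, 29.3% with adenoma above and 27.6% with adenoma below.

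**Figure D1:**
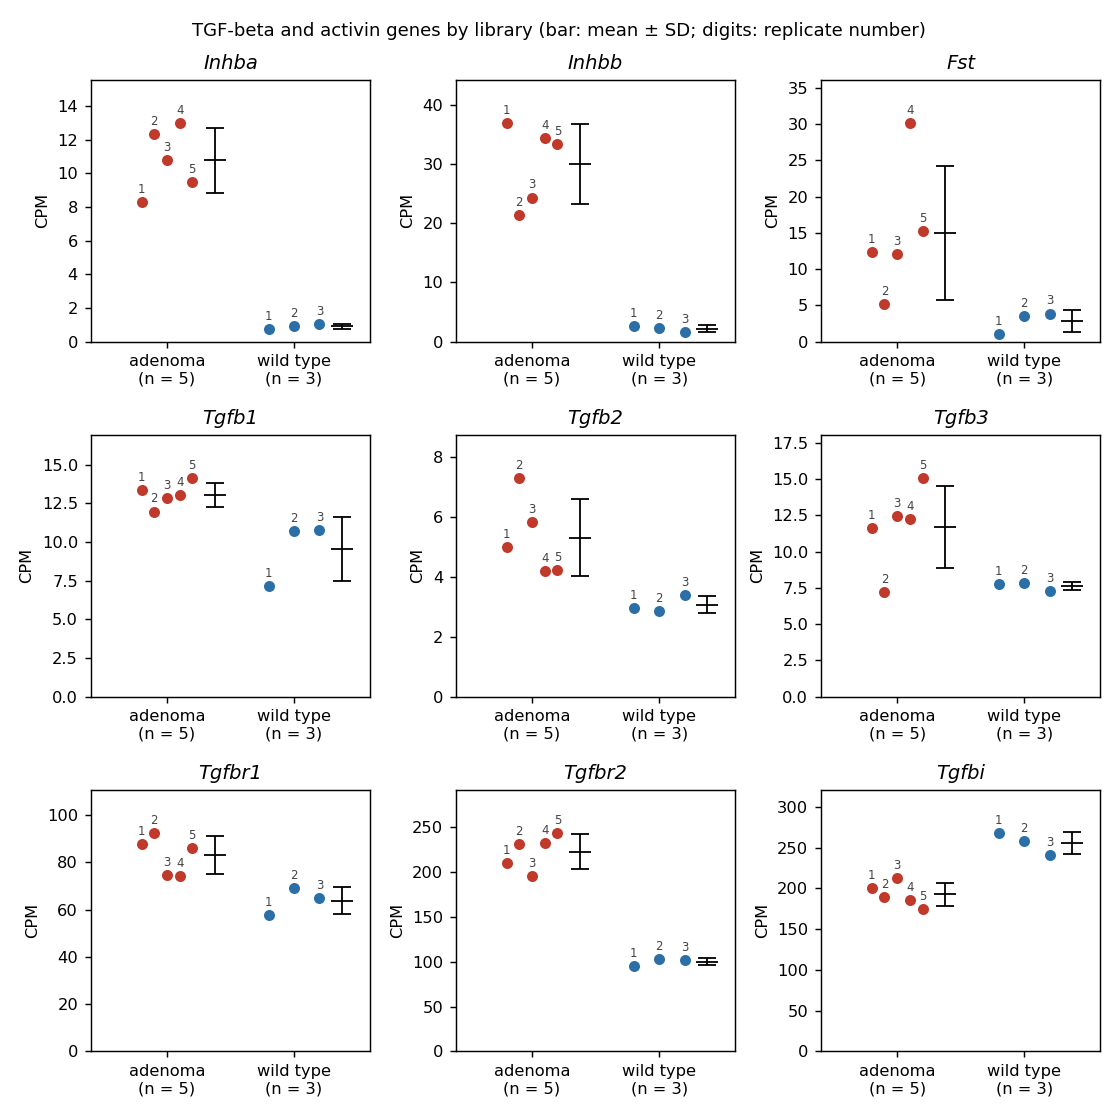
CPM of the 9 genes (vertical axes, from 0) in each of 5 adenoma and 3 wild-type libraries, with the mean ± SD beside the points and the replicate number above each. Inhba and Inhbb stand far above wild type in every adenoma, Tgfbi lies below wild type in every adenoma, and Tgfb3 of adenoma 2 lies just below the wild-type values.

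Inhba (ENSMUSG00000041324, GRCm38 chromosome 13, 16011851 to 16031621, plus strand) encodes the beta A subunit, whose dimer is activin A. It stood at 8.30, 12.35, 10.8, 12.97 and 9.51 CPM in adenomas 1 to 5, against 0.764, 0.947 and 1.04 CPM in wild type 1 to 3. Each adenoma lay far above each wild-type library, whose values rest on 15, 17 and 19 counts. The means were 10.8 ± 1.94 CPM in adenoma (SD, n = 5) and 0.916 ± 0.139 CPM in wild type (SD, n = 3). The log2 fold change was 3.55 ± 0.22, or 11.7-fold (edgeR quasi-likelihood test, adjusted p = 1.51e-05). It ranked 358th of 18345 genes by log2 fold change. Inhbb (ENSMUSG00000037035, chromosome 1, 119415465 to 119422248, minus strand) encodes the beta B subunit. It stood at 36.8, 21.4, 24.3, 34.3 and 33.3 CPM in adenomas 1 to 5, against 2.65, 2.34 and 1.64 CPM in wild type. The lowest adenoma, adenoma 2, was still far above the highest wild-type library. Its log2 fold change was 3.76 ± 0.26, or 13.6-fold (edgeR, adjusted p = 2.08e-05), and the gene ranked 323rd. The order of the adenomas differed between the genes: adenoma 1 was lowest for Inhba and highest for Inhbb.

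Follistatin mRNA rose as well but varied more between adenomas. Fst (ENSMUSG00000021765, chromosome 13, 114452290 to 114458951, minus strand) stood at 12.35, 5.12, 12.06, 30.09 and 15.2 CPM in adenomas 1 to 5, against 1.07, 3.57 and 3.87 CPM in wild type. Adenoma 4 held the most and adenoma 2 the least, though adenoma 2 still lay above wild type. The log2 fold change was 2.40 ± 0.64, or 5.29-fold (edgeR, adjusted p = 0.0130). Without wild type 1 and adenoma 5 together the log2 fold change was 2.01 and the call was lost (adjusted p = 0.0673), as it did with the Xist and Y gene pattern as a covariate (2.12, adjusted p = 0.111).

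Per length of their exons, the activin subunit genes summed together overtook the sum of the TGF-beta ligand genes in adenoma. Levels are CPM per kb of all annotated exons, which allows genes to be set side by side. Summed over Inhba and Inhbb, the level was 8.75 ± 1.47 CPM per kb in adenoma and 0.662 ± 0.102 CPM per kb in wild type (SD, n = 5 and 3). The sum of Tgfb1, Tgfb2 and Tgfb3 was 6.97 ± 0.797 CPM per kb in adenoma and 4.68 ± 0.385 CPM per kb in wild type. The ratio of the activin sum to the TGF-beta sum was thus 1.02 to 1.46 in the adenomas and 0.112 to 0.175 in wild type. Inhbb exceeded Inhba in every library, by 2.60 to 6.665 times in adenoma and 2.37 to 5.21 times in wild type, and these ranges overlapped. Inhba alone had a mean of 1.69 CPM per kb in adenoma, below Tgfb3 at 3.465 and Tgfb1 at 2.59 and above Tgfb2 at 0.915. The ratio of activin subunit genes to Fst did not separate the groups: it was 3.70, 6.245, 2.81, 1.54 and 2.81 in adenomas 1 to 5, against 3.18, 0.899 and 0.648 in wild type. Adenoma 2, low in Fst, had the highest ratio, and wild type 1 lay within the range of the adenomas.

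**Figure D2:**
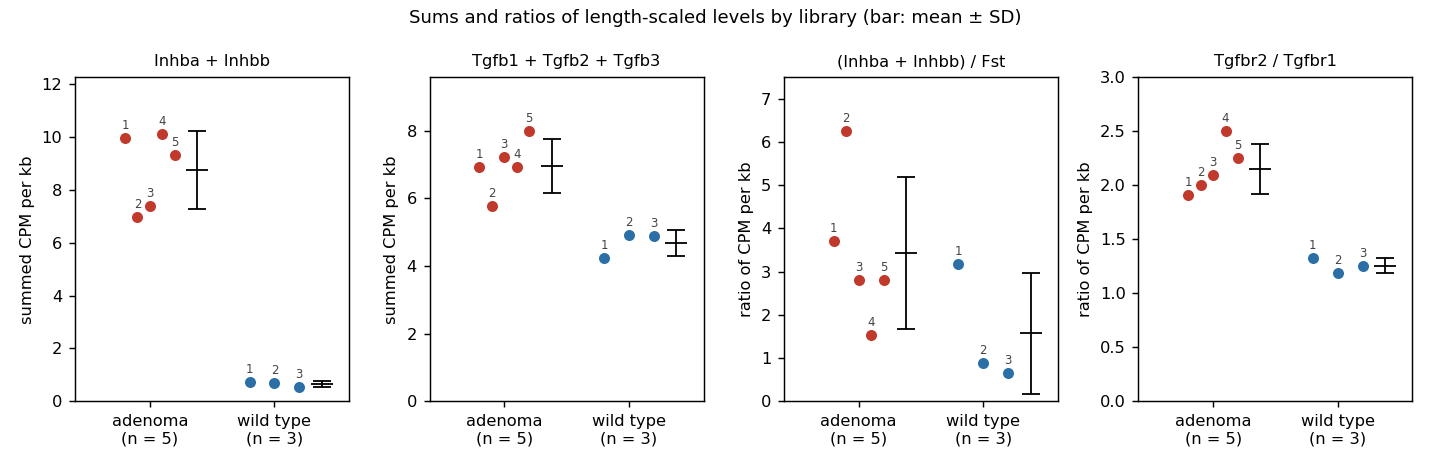
Sums (CPM per kb) and ratios of length-scaled levels in each adenoma and wild-type library, with mean ± SD beside the points. The activin sum and the ratio of Tgfbr2 to Tgfbr1 are higher in every adenoma than in every wild-type library, while the ratio of activin subunit genes to Fst overlaps between the groups.

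The TGF-beta ligand genes were higher in adenoma by small margins. Their differences turned negative when libraries were scaled to equal summed fibroblast markers, at -0.45, -0.14 and -0.30 for Tgfb1, Tgfb2 and Tgfb3. The median of all genes on that scale was lower, at -0.88. Tgfb1 (ENSMUSG00000002603, chromosome 7, 25687002 to 25705077, plus strand), the form made by many immune and stromal cells, stood at 13.3, 11.97, 12.8, 13.01 and 14.1 CPM in adenomas 1 to 5, against 7.18, 10.7 and 10.8 CPM in wild type. The groups did not overlap, and wild type 1 was the low library. The difference was 0.45 ± 0.15 on the log2 scale (edgeR, adjusted p = 0.0300). Tgfb2 (ENSMUSG00000039239, chromosome 1, 186622792 to 186705989, minus strand) stood at 4.99, 7.28, 5.81, 4.19 and 4.23 CPM in adenomas 1 to 5, against 2.95, 2.84 and 3.38 CPM in wild type. Every adenoma was above wild type and adenoma 2 was highest. The difference was 0.79 ± 0.22 on the log2 scale (adjusted p = 0.0147). Tgfb3 (ENSMUSG00000021253, chromosome 12, 86056745 to 86079041, minus strand) stood at 11.6, 7.23, 12.5, 12.2 and 15.1 CPM in adenomas 1 to 5, against 7.79, 7.80 and 7.31 CPM in wild type. Adenoma 2 lay below all wild-type libraries and the other adenomas above them. The difference was 0.62 ± 0.21 on the log2 scale (adjusted p = 0.0335).

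The calls of the ligand genes lay close to the threshold. The Tgfb3 call was lost when any 1 library other than adenoma 2 was left out (adjusted p = 0.0590 to 0.0994). The Tgfb1 call was lost without adenoma 1, 3, 4 or 5 or wild type 1 (adjusted p = 0.0503 to 0.0653), and that of Tgfb2 once wild type 2 was left out (adjusted p = 0.0517). Leaving out wild type 1, the log2 fold change of Tgfb1 was 0.29. Of the exon bases of Tgfb3, 12.4% are shared with genes on the opposite strand, as are 2.14% for Tgfb2 and 2.51% for Fst. The library kit does not keep strand, so such reads cannot be told apart. The shares of the 3 ligand genes in their sum overlapped between the groups. Per kb, Tgfb1 made up 35.1% to 41.2% of it in adenoma and 33.6% to 43.8% in wild type. Tgfb2 made up 9.15% to 21.8% in adenoma and 9.98% to 12.04% in wild type. Tgfb3 made up 37.05% to 55.8% in adenoma and 44.2% to 54.4% in wild type. The highest Tgfb2 share and the lowest Tgfb3 share were those of adenoma 2.

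The receptor genes were higher by unequal amounts. Tgfbr1 was lower on the scale of equal fibroblast markers, where the median of all genes was -0.88. Tgfbr2 (ENSMUSG00000032440, chromosome 9, 116084293 to 116175360, minus strand), the type II receptor that binds the ligand first, stood at 210.3, 231, 195, 232 and 243 CPM in adenomas 1 to 5, against 95.5, 103 and 102 CPM in wild type. The lowest adenoma lay far above the highest wild-type library. This is a log2 fold change of 1.15 ± 0.10, or 2.22-fold (edgeR, adjusted p = 5.83e-05). Tgfbr1 (ENSMUSG00000007613, chromosome 4, 47353222 to 47414931, plus strand), the type I receptor kinase, stood at 87.9, 92.3, 74.6, 74.2 and 86.1 CPM in adenomas 1 to 5, against 57.5, 69.1 and 64.8 CPM in wild type. The groups did not overlap but lay close. On the log2 scale the difference was 0.38 ± 0.11, or 1.30-fold (adjusted p = 0.0137), which without wild type 1 became 0.32 and missed the threshold (adjusted p = 0.0511). Upper-quartile scaling also ended the calls of Tgfbr1 (0.30, adjusted p = 0.0520) and Tgfb1 (0.37, adjusted p = 0.0609), leaving 7 of the 9 called. The filter of 5 CPM ended those of Tgfbr1, Tgfb1 and Tgfb3 (adjusted p = 0.0606, 0.0701 and 0.0593). The ratio of Tgfbr2 to Tgfbr1 per kb was 1.91 to 2.50 in adenoma and 1.19 to 1.33 in wild type, so each adenoma had a higher ratio than each wild-type library.

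Tgfbi went the other way. The gene (ENSMUSG00000035493, chromosome 13, 56609523 to 56639562, plus strand), which encodes a secreted matrix protein that binds integrins and collagen, stood at 199.9, 189.9, 213, 185 and 175 CPM in adenomas 1 to 5, against 268, 259 and 241 CPM in wild type. Every adenoma lay below every wild-type library. Its log2 fold change was -0.41 ± 0.10, which is 75.3% of the wild-type level (edgeR, adjusted p = 0.00668). Per kb it was the most abundant of the 9 genes in both groups, at 51.1 CPM per kb in adenoma and 67.8 CPM per kb in wild type, followed by Tgfbr2 at 27.2 and 12.2 CPM per kb. The order below Tgfbr2 was Tgfbr1, Inhbb, Tgfb3, Fst, Tgfb1, Inhba and Tgfb2 in adenoma, at 12.7 to 0.915 CPM per kb. In wild type it was Tgfbr1, Tgfb3, Tgfb1, Fst, Tgfb2, Inhbb and Inhba, at 9.76 to 0.143 CPM per kb. The order is uncertain around Fst, whose range of 1.12 to 6.56 CPM per kb in adenoma overlapped those of Inhbb, Tgfb3, Tgfb1, Inhba and Tgfb2, and the ranges of Tgfb3 and Tgfb1 overlapped each other. In wild type the ranges of Tgfb2, Fst and Inhbb overlapped. The Tgfbi call was lost without wild type 1 and adenoma 5 together (adjusted p = 0.0569) and with the Xist and Y gene pattern as a covariate (adjusted p = 0.150), at log2 fold changes of -0.34 and -0.36.

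Other genes of the pathway were read from 6 lists of 71 genes, of which 61 were tested, 27 were higher, 7 lower and 27 not called. Over all genes tested 58.1% were called, 30.3% higher and 27.8% lower, so the called share of these lists is near that of all genes, and the counts of each list below stand against the same shares. Their median log2 fold change was 0.43. Genes listed for latency and activation of TGF-beta were higher in 6 of 11 cases and never called lower. Their median log2 fold change was 0.62, and whether each acts on latent TGF-beta here was not tested. Thbs1, which encodes the latency-breaking matrix protein thrombospondin, stood at 252 to 470.3 CPM in adenoma and 67.2 to 81.9 CPM in wild type, a log2 fold change of 2.19 ± 0.20 (edgeR, adjusted p = 6.99e-05). Itgb6 and Itgav, which pair as the epithelial integrin that frees TGF-beta, rose by 1.49 ± 0.16 and 1.00 ± 0.12 on the log2 scale. Ltbp2, of the latent TGF-beta binding protein family, rose by 1.34 ± 0.17. On the scale of equal fibroblast markers Itgav and Ltbp2 stood at 0.06 and 0.39 and were not called (adjusted p = 0.750 and 0.0981), and scaling to pan-epithelial markers also ended the call of Itgav (0.80, adjusted p = 0.0583). Itgb8, another such integrin gene, reached 46.7 CPM in adenoma 2, beside 5.78 to 9.34 CPM in adenomas 1, 3, 4 and 5 and 2.73 to 7.13 CPM in wild type. It was not called (adjusted p = 0.113) and was named after its values were seen.

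**Figure D3:**
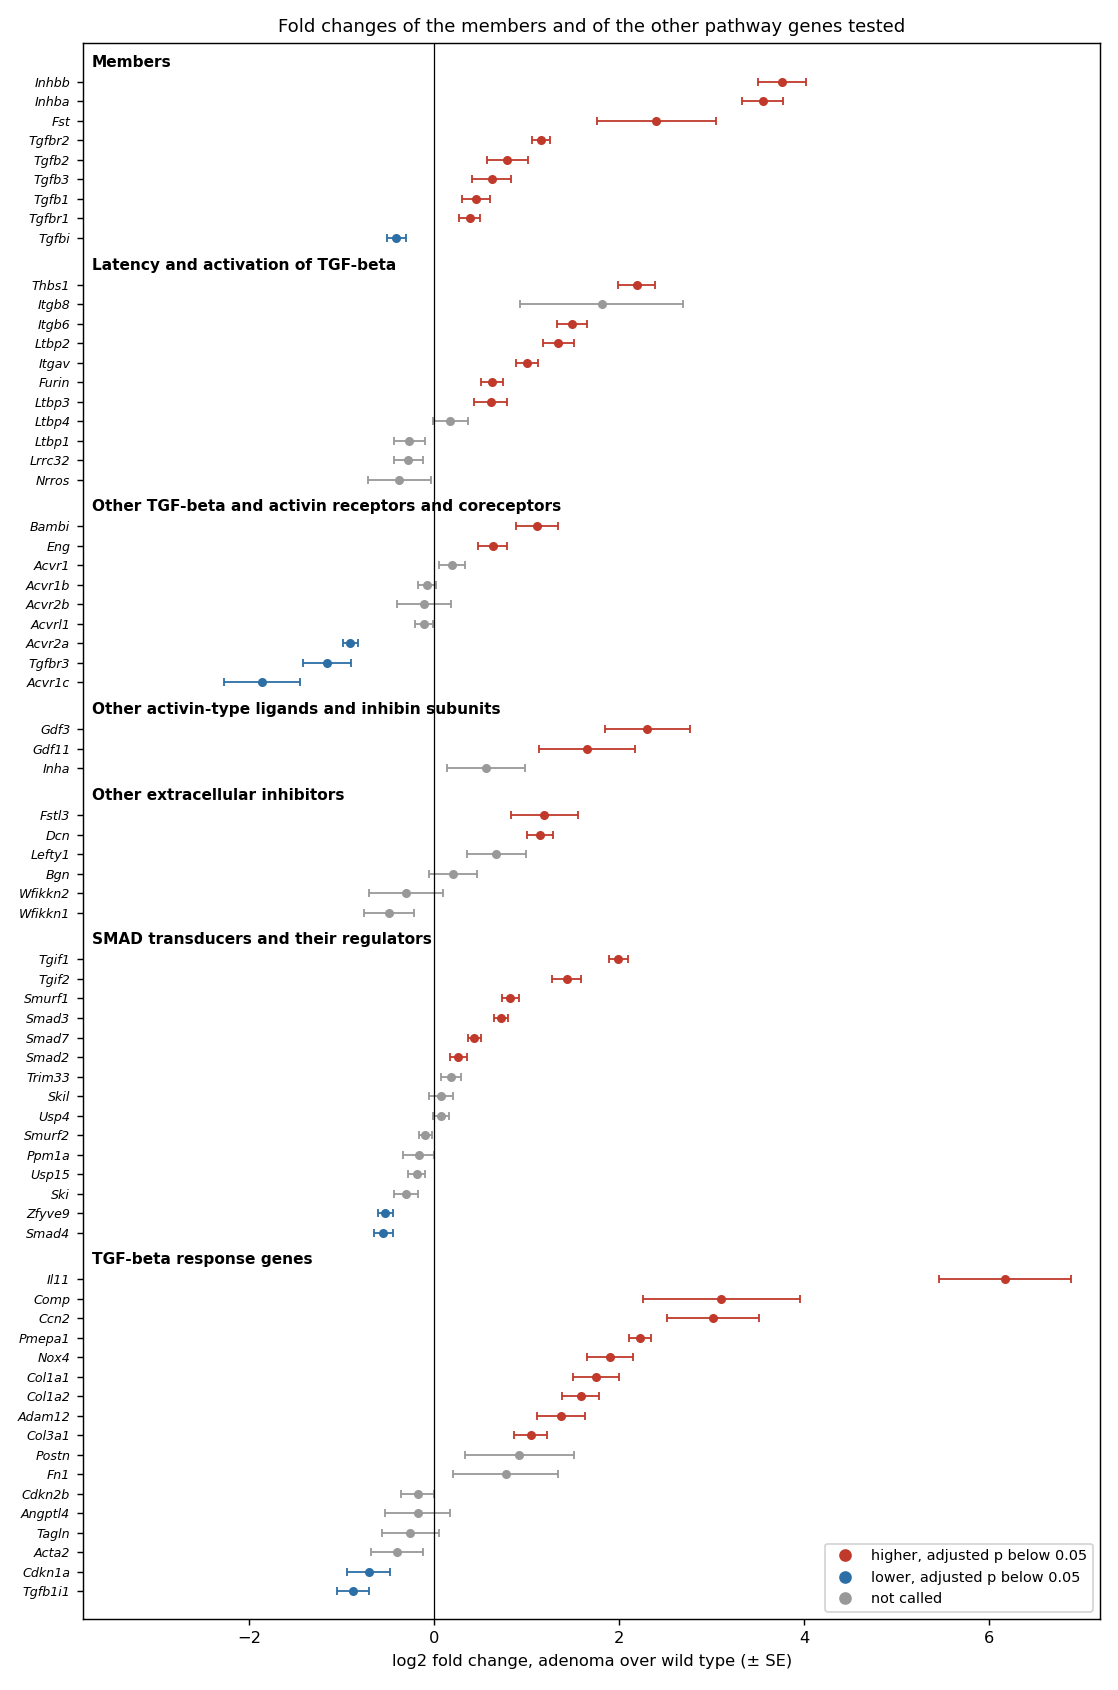
Log2 fold change of adenoma over wild type ± SE (horizontal axis) for the 9 members and the 61 tested genes of the 6 lists, with red for genes called higher, blue for lower and grey for not called. Ligand-side and response genes reach further to the right than the receptor and SMAD lists, and the receptor genes Acvr2a, Tgfbr3 and Acvr1c lie left of 0 in blue.

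Receptors other than Tgfbr1 and Tgfbr2 did not move in 1 direction. Of 9 tested, 2 were higher and 3 lower, and the median was -0.11 on the log2 scale. Without adenoma 2, 11 genes of the 6 lists were lower in place of 7. Acvr2a, a type II receptor for activins, stood at 34.0 to 40.2 CPM in adenoma and 63.6 to 71.1 CPM in wild type, a log2 fold change of -0.91 ± 0.08 (edgeR, adjusted p = 6.82e-05). With single libraries left out it was -0.96 to -0.86. Acvr1c, a type I receptor for activin-like ligands also known as ALK7, fell by 1.86 ± 0.41 on the log2 scale, to 4.25 ± 2.26 CPM in adenoma against 15.4 ± 4.34 CPM in wild type. Tgfbr3, the coreceptor betaglycan, which presents TGF-beta 2 and inhibins, fell by 1.16 ± 0.26. Bambi, a pseudoreceptor without kinase activity that blocks signalling, rose by 1.11 ± 0.23, and by 0.89 to 1.19 with single libraries left out. Eng, an endothelial coreceptor, rose by 0.63 ± 0.16, and stood at -0.28 on the scale of equal fibroblast markers. Bambi was at 0.16 on that scale and not called (adjusted p = 0.528), nor was it called with pan-epithelial scaling (0.96, adjusted p = 0.0940), as was the case for Eng (0.40, adjusted p = 0.354). With the Xist and Y gene covariate, Bambi, Tgfbr3 and Eng were not called (0.95, -1.37 and 0.57, with adjusted p = 0.0783, 0.0650 and 0.131). Acvr1b, the main type I activin receptor, stood at 78.6 ± 3.11 CPM in adenoma and 83.3 ± 11.6 CPM in wild type and was not called (adjusted p = 0.482). It was called lower on the scale of equal fibroblast markers (-1.02, adjusted p = 4.14e-04), where the median of all genes was -0.88. Eng and Acvr1b were named after their values were seen.

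Other activin-type ligands were scarce. Of 8 listed genes 3 were tested, and 2 of those were higher, at a median of 1.65. Gdf11 stood at 6.25 to 26.8 CPM in adenoma, with adenoma 2 highest, and at 3.23 to 4.28 CPM in wild type, a log2 fold change of 1.65 ± 0.52 (edgeR, adjusted p = 0.0241). Without adenoma 2 it was 1.07. Its call was lost without any 1 of the wild-type libraries (adjusted p = 0.0571 to 0.0771). Gdf3 stood at 0.559 to 1.66 CPM in adenoma and 0.167 to 0.382 CPM in wild type, a log2 fold change of 2.30 ± 0.46. With the Xist and Y gene covariate Gdf3 and Gdf11 stood at 1.14 and 0.77 and were not called (adjusted p = 0.133 and 0.422). Gdf11 also lost its call with fibroblast and pan-epithelial scaling (0.65 and 1.63, adjusted p = 0.194 and 0.104). Gdf1 was not analysed here. Inha, whose product turns the beta subunits into inhibins, was at 0.423 to 1.03 CPM in adenoma and 0.356 to 0.613 CPM in wild type and was not called. Mstn, Lefty2 and Cer1 had 0 counts in all libraries, where 3 counts would be at most 0.166 CPM of a library's total. Of the other extracellular inhibitors 2 of 6 were higher and 0 lower, at a median of 0.44. Fstl3, a second activin-binding protein, rose by 1.19 ± 0.36 on the log2 scale to 2.22 ± 0.934 CPM in adenoma, against 0.969 ± 0.204 CPM in wild type. That call was lost without wild type 1 or 2 (adjusted p = 0.0734 and 0.0656). Dcn, a matrix proteoglycan that binds TGF-beta, rose by 1.14 ± 0.14 and is also a fibroblast marker here. On the scale of equal fibroblast markers Fstl3 and Dcn stood at 0.25 and 0.22 and were not called (adjusted p = 0.507 and 0.368). Dcn is itself part of the sum that sets this scale, so its value there is not independent of the scale. Fstl3 was not called with pan-epithelial scaling or the covariate either (adjusted p = 0.161 and 0.224).

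Transducers and their regulators were higher for 6 of 15 genes and lower for 2, and the median was 0.07 on the log2 scale. Tgif1 and Tgif2, corepressors of Smad2 and Smad3, stood at 55.8 ± 4.59 and 21.0 ± 3.45 CPM in adenoma, against 14.0 ± 0.902 and 7.81 ± 0.852 CPM in wild type (edgeR, adjusted p = 7.57e-06 and 1.60e-04). Smurf1, a ubiquitin ligase of the pathway, rose by 0.82 ± 0.09 on the log2 scale. Smad3 stood at 86.2 to 95.04 CPM in adenoma and 49.4 to 57.9 CPM in wild type, a log2 fold change of 0.72 ± 0.08. Zfyve9, which holds Smad2 and Smad3 at the receptor, fell by 0.53 ± 0.08. Smad4, Smad7 and Smad2 were named after their values were seen. Smad4, the shared partner, stood at 91.0 to 110.0 CPM in adenoma and 131 to 158 CPM in wild type, a log2 fold change of -0.55 ± 0.10 (adjusted p = 0.00176). Smad7, the inhibitory Smad, rose by 0.43 ± 0.07. Smad2 changed by 0.26 ± 0.09 (adjusted p = 0.0298), a call lost without adenoma 3, 4 or 5 or wild type 2 or 3 (adjusted p = 0.0518 to 0.120). On the scale of equal fibroblast markers, where the median of all genes was -0.88, Smad3, Smurf1, Smad7 and Smad2 turned negative, at -0.21, -0.09, -0.50 and -0.67. With pan-epithelial scaling none of the 4 was called (adjusted p = 0.0879 to 0.917). Smad4 was not called with the Xist and Y gene covariate (-0.37, adjusted p = 0.104). Per kb, the ratio of Smad3 to Smad4 was 0.526 to 0.683 in adenoma and 0.2095 to 0.296 in wild type.

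Of 17 tested genes known to respond to TGF-beta, 9 were higher, 2 were lower and the median was 1.04 on the log2 scale. Over all genes tested, 30.3% were higher and 27.8% lower. Col1a1, Col1a2 and Col3a1 among the 9 are also fibroblast markers, whose sum was higher in every adenoma. Pmepa1, a feedback inhibitor that sequesters Smad2 and Smad3, stood at 114 to 151 CPM in adenoma and 26.3 to 31.8 CPM in wild type, a log2 fold change of 2.22 ± 0.12 (edgeR, adjusted p = 8.55e-06). Il11, a cytokine made by stromal cells after TGF-beta, rose by 6.17 ± 0.71 on the log2 scale, to 5.73 to 27.0 CPM in adenoma against 0.153 to 0.334 CPM in wild type. Col1a2, a collagen chain, rose by 1.58 ± 0.20. Nox4, an enzyme that makes hydrogen peroxide, rose by 1.90 ± 0.25, to 2.80 to 3.96 CPM in adenoma against 0.662 to 1.23 CPM in wild type. Ccn2, a matricellular growth factor named after its value was seen, was at 37.3 ± 23.6 CPM in adenoma and 4.63 ± 1.06 CPM in wild type. Its log2 fold change was 3.01 ± 0.50 (edgeR, adjusted p = 0.00138), and 2.53 to 3.21 with single libraries left out. Adenoma 2 held 79.0 CPM of it, and the other adenomas 22.6 to 31.2 CPM. Tgfb1i1, a focal adhesion protein of smooth muscle and fibroblasts, fell by 0.88 ± 0.17. Cdkn1a, the cell cycle inhibitor p21, stood at 17.3 to 37.9 CPM in adenoma and 34.2 to 46.5 CPM in wild type, a log2 fold change of -0.71 ± 0.23 (adjusted p = 0.0282). Adenoma 2 lay within the wild-type range, and the gene was named after its values were seen. The call of Cdkn1a was lost when adenoma 3 or 4 or wild type 2 or 3 was left out (adjusted p = 0.0529 to 0.101), and with total-count or pan-epithelial scaling (adjusted p = 0.0706 and 0.120). The other 6 genes were not called. Acta2, Tagln, Cdkn2b and Angptl4 stood at log2 fold changes of -0.40, -0.26, -0.18 and -0.18, and Postn and Fn1 at 0.92 and 0.77. Adenoma 2 held 191 CPM of Postn and 993 CPM of Fn1, against 37.2 to 80.1 and 198 to 282 CPM in the other adenomas. They were named after their values were seen and were not followed over the other settings. Many of the genes in this list also respond to other signals.

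Markers of several cell types also differed between adenoma and wild type, in both directions. Over all genes tested 30.3% were called higher and 27.8% lower, and the count of each marker list stands against these shares. In bulk tissue, fewer cells of a type and less RNA per cell cannot be told apart. Of 11 tested fibroblast markers 7 were higher and 1 lower, and their summed level was 2904 to 3704 CPM in adenoma against 1512 to 1882 CPM in wild type. Col1a1, Col1a2, Col3a1 and Dcn are in that list and in the pathway lists. Endothelial markers had 6 of 10 higher and summed to 312.5 to 377 CPM in adenoma and 204 to 222 CPM in wild type. Neutrophil markers had 7 of 8 higher, summing to 82.75 to 157 CPM in adenoma against 30.4 to 44.25 CPM in wild type, where Ly6g was at 0 throughout and S100a8 in wild type 3. Smooth muscle markers had 6 of 10 lower, at 438 to 1087 CPM in adenoma against 978 to 1760 CPM in wild type. T cell markers had 5 of 10 lower and 1 higher, at 14.1 to 22.3 CPM in adenoma against 48.3 to 56.6 CPM in wild type. Macrophage markers had 2 of 10 lower, at 333 to 812 CPM in adenoma against 439.8 to 508 CPM in wild type. Pan-epithelial markers had 6 of 10 higher and 1 lower, at 5738 to 10800 CPM in adenoma and 6764 to 7800 CPM in wild type. No fibroblast, endothelial, smooth muscle, T cell, macrophage or pan-epithelial marker was at 0 in any library. The part of these cell types in the changes of the 9 genes was not tested.

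Scaling decided the small increases but not those of the activin subunit genes. With libraries scaled to equal summed fibroblast markers, the median over all genes moved to -0.88 on the log2 scale, beside 0.04, and 8.26% of all calls were higher, beside 52.2%. In adenoma, Col3a1, Col1a2 and Col1a1 held the most of that sum, at means of 1311, 653 and 447 CPM. These collagen genes are also in the list of TGF-beta response genes. On that scale Inhba and Inhbb were still called higher, at log2 fold changes of 2.64 and 2.85 (edgeR, adjusted p = 6.59e-06 and 1.66e-05). Fst was at 1.57 (adjusted p = 0.0630) and Tgfbr2 at 0.23 (adjusted p = 0.211), both not called. Tgfb1 and Tgfbr1 were called lower, at -0.45 and -0.54 (adjusted p = 0.0323 and 0.00396), and Tgfbi at -1.33. Tgfb2 and Tgfb3 stood at -0.14 and -0.30 and were not called. With scaling by pan-epithelial markers the median of all genes was -0.20 and 29.3% of calls were higher. Inhba, Inhbb, Fst and Tgfbr2 were then still called higher, at 3.33, 3.49, 2.01 and 0.93, and Tgfbi lower, at -0.65. The other 4 were not called (adjusted p = 0.275 to 0.691). With the Xist and Y gene pattern as a covariate, Inhba, Inhbb and Tgfbr2 were called and the other 6 were not. Without adenoma 2 all 9 kept their calls, with log2 fold changes of 3.49 for Inhba, 3.85 for Inhbb, 2.62 for Fst, 0.47 for Tgfb1, 0.64 for Tgfb2, 0.74 for Tgfb3, 0.33 for Tgfbr1, 1.13 for Tgfbr2 and -0.41 for Tgfbi.

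**Figure D4:**
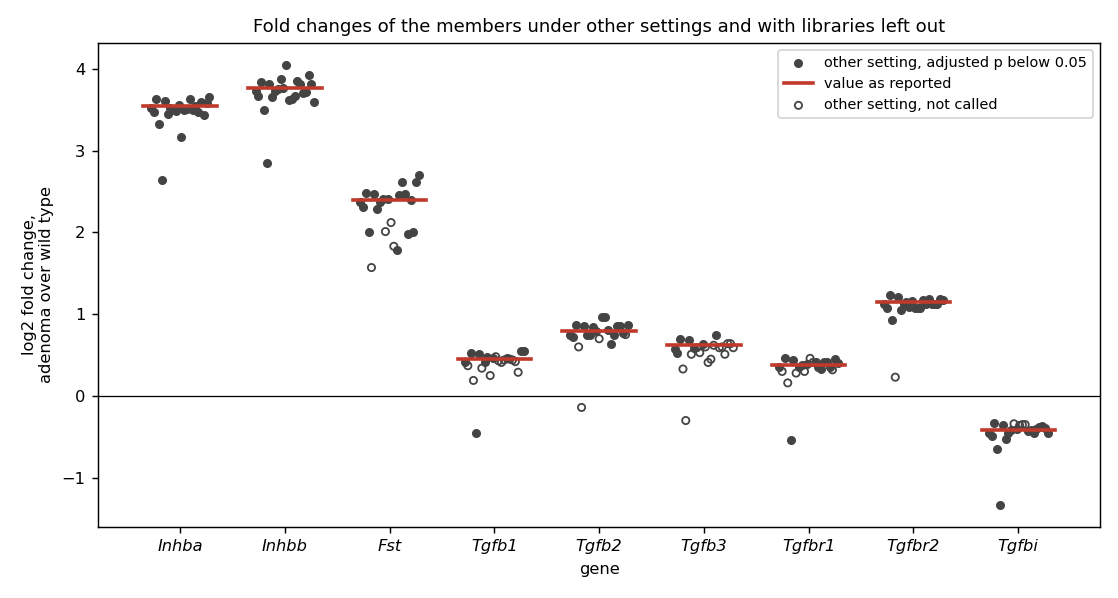
Log2 fold change of each of the 9 genes (vertical axis) as reported (red line) and under 22 other settings or with libraries left out (21 for Tgfb2), filled where the adjusted p is below 0.05 and open where it is not. Inhba and Inhbb stay filled in all settings, and the single points below 0 for Tgfb1, Tgfb2, Tgfb3 and Tgfbr1 are those of scaling by fibroblast markers.

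For each gene the 3 tested genes with the most similar profile were sought, by the root mean square difference of log2 CPM centred on each gene's mean over the 8 libraries. Since the group difference takes part in this measure, it mostly finds genes with an equal fold change. The nearest to Inhba were Fam89a, Mboat2 and Cgnl1, at 0.181 to 0.222. The nearest to Inhbb were Basp1, Ecscr and Capg, at 0.168 to 0.195. The nearest to Fst were farther, with the tight junction gene Cldn2 at 0.331 and Lncenc1 and Btc at 0.404 and 0.422. The nearest to Tgfbr2 were Zfp266, Aplp2 and Tmprss2, at 0.0523 to 0.0656, and to Tgfbr1 Polr3b, Fbxw4 and Cdc23, at 0.0541 to 0.0660. For Tgfb1 they were Pphln1, Brix1 and Xpo5, at 0.0566 to 0.0620. For Tgfb2 they were Foxf2, Kremen1 and Prtg, at 0.117 to 0.122. For Tgfb3 they were Cblb, Cryzl2 and Dusp6, at 0.0930 to 0.109, and for Tgfbi Tank, Fam149b and Umad1, at 0.0481 to 0.0635.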

How the data were processed

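RNA of 5 adenoma and 3 wild-type libraries was measured by sequencing. Per the labels' protocols, RNA came from Qiagen RNeasy kits and libraries of the TruSeq RNA kit v2, which does not keep strand, were read as paired ends on an Illumina NextSeq. The authors deposited raw counts per gene under Ensembl identifiers. The submitters' processing notes list TopHat2, HTSeq, FastQC and the build GRCm38. Their versions, the annotation release and the strand setting, not given in the sources used here, are unknown. Symbols, positions and exon lengths were taken from GENCODE M21 (GRCm38), which matched 37693 of 39179 identifiers, and the others held 0.304% to 0.407% of the counts.

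Counts were tested with edgeR 4.0.16 in R 4.3.3: filterByExpr by group, TMM scaling, robust quasi-likelihood fit, Benjamini-Hochberg adjustment over all 18345 genes, threshold 0.05. The SE is the log2 fold change divided by the square root of F. A prior count of 2 entered the log2 CPM values. The test was run on simulated counts with 200 changed genes. It recovered 45% of 2-fold and 86% of 4-fold changes, and 5.76% of its calls were false. Since 58.1% of genes were called in the data, that setting differs from them and does not check the scaling. Libraries of a group differed beyond sampling noise (chi-square per degree of freedom of 20.1 to 149), so no pair was taken for copies of one library, which does not show that they came from different mice. The floor of 3 counts covers counting error only, while the SD and SE values include the spread between libraries.

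Members, gene lists and alternatives were chosen with earlier results of these data known, and 1 list gene is not reported here. Besides the 9 members, the rule named, for each pathway list, the 4 called genes of lowest adjusted p and the leading one of the direction held by fewer. It also named the 3 genes nearest to each member in profile. Genes outside the rule are marked in the text, apart from Inha, Mstn, Lefty2 and Cer1, which were also named after their values were seen. Alternatives were other scalings (RLE, upper-quartile, total-count, pan-epithelial and fibroblast markers) and filters, DESeq2 1.42.0 and limma-voom (limma 3.58.1). Others were left-out libraries, a run without ribosomal RNA genes, the Xist and Y gene pattern as a covariate and a replicate block. Gm42418, Lars2, Gm15564 and Gm26917 were treated as ribosomal RNA genes. They held 15.1% to 23.5% of counts in adenoma and 10.7%, 23.1% and 11.4% in wild type 1 to 3. Without them 9 members were called, 8 higher.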

Additional observations from a re-analysis of the deposited data

Results flagged for a closer look

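Of 40 genes looked at over the 5 adenomas, 5 had a library far from the others, its gap to the nearest exceeding 0.71 of the range. Chance alone flags about 1 in 20 groups, but Itgb8 and Ccn2 were named after their values were seen, so the count cannot be set against that rate. In all 5 the library was adenoma 2. Itgb8 reached 46.7 CPM in that library, with 5.78 to 9.34 CPM in the rest of the adenomas, and its log2 fold change, not called, was 0.72 without it and 1.81 with it. Gdf11 reached 26.8 CPM in adenoma 2, with 6.25 to 9.004 CPM elsewhere among the adenomas. Ccn2 was at 79.0 CPM there, against 22.6 to 31.2 CPM. Bambi was at 27.5 CPM there, against 13.3 to 16.4 CPM. Acvr2a was at 40.2 CPM there, against 34.0 to 35.4 CPM. None of the 9 TGF-beta and activin members met this rule.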

How the results depend on the processing

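Over the 9 members and their alternatives, 148 fold changes kept direction and side of the threshold, 45 kept direction but lost the call, and 4 reversed. With 9 members called, 8 higher, left-out single libraries gave 6 to 9 called and 5 to 8 higher, and 22 to 27 pathway genes higher and 6 to 11 lower, beside 27 and 7. The 5 higher members were those without wild type 1, and the 11 lower genes those without adenoma 2. Scaling by pan-epithelial markers gave 6223 genes called, 1824 higher, with 5 members called, 4 higher, and 14 pathway genes higher. Scaling by fibroblast markers gave 1102 genes higher and 12233 lower, 5 members called, 2 higher, and 11 pathway genes higher and 31 lower. It reversed Tgfb1 (-0.45), Tgfb2 (-0.14), Tgfb3 (-0.30), Tgfbr1 (-0.54), Smurf1 (-0.09), Smad3 (-0.21), Smad2 (-0.67), Smad7 (-0.50), Eng (-0.28) and Inha, not called (-0.32). This follows from its construction, since that sum was higher in every adenoma. Acvr1b, not called, changed sign without wild type 1 (left-out single libraries gave -0.18 to 0.02) and without wild type 1 and adenoma 5 (0.00), and was called lower with fibroblast scaling (-1.02). Upper-quartile scaling called 7 members, 6 higher, and limma-voom did not call Tgfb3 (adjusted p = 0.0609). The filter of 5 CPM, which left out Tgfb2, called 5 members, 4 higher. Without wild type 1 and adenoma 5, 4 members were called, all 4 higher. With the Xist and Y gene pattern as a covariate, 5372 genes were called, 3074 higher and 2298 lower, with 3 members, 3 of them higher, and 17 pathway genes higher. There Inha, not called, was at 0.00. No wild-type library has the female pattern, so that contrast rests on adenoma 1 alone. The cause of these other changes was not tested.

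Replicate numbers 1 to 3 occur in both groups, and the labels do not say that a number marks a shared source. Deviations of same-numbered libraries had correlations of -0.0182, 0.0513 and 0.0612, and the other pairs -0.0634 to 0.0324. Correlations this near 0 from so few libraries can neither show nor exclude a shared source. Adenoma 1 correlated better with wild type 2 than with wild type 1. With a replicate block over these 6 libraries, 6500 genes were called, 3255 higher and 3245 lower, with 4 members, 4 of them higher (Tgfb2, Tgfbr2, Inhba and Inhbb). Without the block the same libraries, a comparison added after seeing the data, gave 7891 genes and 6 members. Inhba had 15 to 19 counts per wild-type library and Fst 21 to 71, which limits the precision of those levels.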
